A study of Ovis aries with 95 samples.

Results

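The genes described are EGR1, FOS, JUNB and HSP70.1 in the brain of the sheep (Ovis aries) before and just after birth. They were chosen by name: a probe was a member when its gene name, or the gene given by its target sequence or description, was one of these 4. That gave 4 genes and 11 probes of 14345 genes and 15008 probes on the array. EGR1 had 3 probes, FOS 4, JUNB 2 and HSP70.1 2, and all 11 passed the filter on dim probes in all 4 regions.

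The samples were from fetuses at 80, 100, 120, 130 and 145 d of gestation and lambs 1 d after birth, and the labels name no treatment. Cortex, brainstem, hippocampus and hypothalamus were each measured in 4 animals per age, except for 3 hippocampi at 100 d, giving 95 arrays of 1 animal's tissue each. The study's methods add that the fetuses of the 145 d group and some of the 100 d group were a few days younger than those labels. They also state that the ewes were not in labour, that each age held a set of twins and that the cortex was frontal. For the fetal tissues the ewes were killed with intravenous pentobarbital and phenytoin. The methods describe no collection of lamb tissue, and whether collection differed at birth was not tested. The labels do not mark the twins, and the values below treat every animal of an age as independent. The methods dissect all 4 regions from each brain and count 4 fetuses per age, so by that account the regions of an age share animals. Tests between regions treated their arrays as independent, with a random block as an alternative. Levels are log2 intensities of the microarray, so a difference of 1 is a 2-fold change.

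FOS, JUNB and EGR1 are immediate early genes. Their mRNAs are normally scarce in a resting cell and appear within minutes of a stimulus, such as synaptic activity or a growth factor, without any new protein having to be made first. FOS and JUNB proteins pair to form the transcription factor AP-1, and EGR1 is a zinc finger transcription factor often used to map neuronal activity. HSP70.1 is a stress-inducible 70 kDa heat shock protein, a chaperone that refolds damaged proteins and is induced through the heat shock factor HSF1.

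Each probe is a 60-base oligonucleotide, written here 5′ to 3′ as printed on the array. The EGR1 probes are shown because they did not move together, and capitals mark the 22 bases that 2 of them share. They start at base 1228 and base 1266 of the sheep EGR1 reference mRNA, and the remaining probe was matched to EGR1 only by its description.
EGR1 A_70_P041731: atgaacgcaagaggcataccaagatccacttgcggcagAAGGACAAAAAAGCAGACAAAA
EGR1 A_70_P041732: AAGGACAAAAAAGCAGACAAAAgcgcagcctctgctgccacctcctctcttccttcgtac
EGR1 A_70_P023511: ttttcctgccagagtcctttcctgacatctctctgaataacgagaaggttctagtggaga

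For FOS, the probes in the coding sequence are shown because they did not move by the same amount as the other FOS probe, A_70_P026731, which lies on an expressed sequence tag named FOS and is not printed. Capitals mark the 59 bases common to the probes at bases 656 and 657 of the FOS reference mRNA, which are the same oligonucleotide displaced by 1 base. The probe A_70_P001561 starts at base 516.
FOS A_70_P001561: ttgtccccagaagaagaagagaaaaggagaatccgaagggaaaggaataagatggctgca
FOS A_70_P016317: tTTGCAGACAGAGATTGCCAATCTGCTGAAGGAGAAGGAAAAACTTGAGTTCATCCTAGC
FOS A_70_P016316: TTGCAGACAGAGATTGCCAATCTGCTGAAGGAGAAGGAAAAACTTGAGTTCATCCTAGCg

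The JUNB probes A_70_P041671 and A_70_P041672 likewise differ by a shift of 1 base. They begin at the end of the coding sequence, and the first 19 bases of A_70_P041672 are given with the stop codon in capitals.
JUNB A_70_P041672: caagggacacgccttcTGA

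The HSP70.1 probes share 58 bases, in capitals. A probe of another expressed sequence tag with no gene name, A_70_P060956, follows them because it overlaps A_70_P031192 over 57 bases with 1 difference, T47A, counted from the 5′ end of A_70_P031192. Its own capitals mark the 46-base run that it has in common with A_70_P031192. Inducible HSP70 genes have near-identical copies, so which copy these probes measured is uncertain.
HSP70.1 A_70_P031192: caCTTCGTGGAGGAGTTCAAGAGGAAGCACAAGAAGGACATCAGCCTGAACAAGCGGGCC
HSP70.1 A_70_P031191: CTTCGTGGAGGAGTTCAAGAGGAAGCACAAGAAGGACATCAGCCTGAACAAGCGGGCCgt
Unnamed A_70_P060956: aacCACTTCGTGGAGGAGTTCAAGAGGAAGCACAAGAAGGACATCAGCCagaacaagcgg

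Gene spots marked well above background made up 73.9% to 83.9% per array in the cortex, 72% to 88.5% in the brainstem, 59.5% to 85.1% in the hippocampus and 75.3% to 86.8% in the hypothalamus. In the brainstem they made up 75.2% to 88.5% at 80 d, 74.8% to 83.6% at 145 d and 72% to 79.7% in newborns. In the cortex these ranges were 74.6% to 77.7%, 75.9% to 81.6% and 75.9% to 83.9%. The part of these shares in the changes with age was not tested. The 14 slides and 6 scan days were each used for 1 region, so a level that differs between regions cannot be told apart from a difference between slides or scan days. Most slides held several ages, and for the changes called before birth or at birth the values within slides are also given. Of the region markers listed, OXT, the oxytocin gene, lay at 10.94 to 11.82 in the hypothalamus at 80 d, 145 d and 1 d after birth and at 7.82 to 8.94 elsewhere. HOXA4, a hindbrain gene, lay at 7.58 to 8.42 in the brainstem and at 6.49 to 6.59 elsewhere. OXT and HOXA4 are single examples from 9 named hypothalamic markers and 5 named brainstem markers. The only named marker of cortex and hippocampus, of 12 listed, was called lower at 145 d than at 80 d in every region. Its change was −0.88 in the cortex, −2.24 in the hippocampus, −4.8 in the brainstem and −1.48 in the hypothalamus. Whether each sample held only its named region was not tested. None of 13 listed neuronal markers had a named probe. In bulk tissue, a change in the number of cells that express a gene and a change in its RNA per cell cannot be told apart.

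In the cortex, all 4 genes rose between 80 d of gestation and 1 d after birth, FOS by 4.97-fold, JUNB by 2.71-fold, HSP70.1 by 2.44-fold and EGR1 by 1.65-fold. Over that interval 44.8% of all genes tested were called and 19.8% were called higher. In the brainstem and hypothalamus, JUNB and HSP70.1 rose between 145 d of gestation and 1 d after birth. In the hippocampus none of the 4 passed the test over age. Over all ages the F test called 4 of 4 genes in the cortex, where it called 45.7% of all genes tested, and 3 of 4 in the brainstem, against 40.6%. In the hypothalamus it called 3 of 4, against 16%, and in the hippocampus 0 of 4, against 3.06%. A call here is an adjusted p under 0.05 in limma over all genes of the region, and limma gave no hippocampal F test of the 4 an unadjusted p under 0.05.

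**Figure D1:**
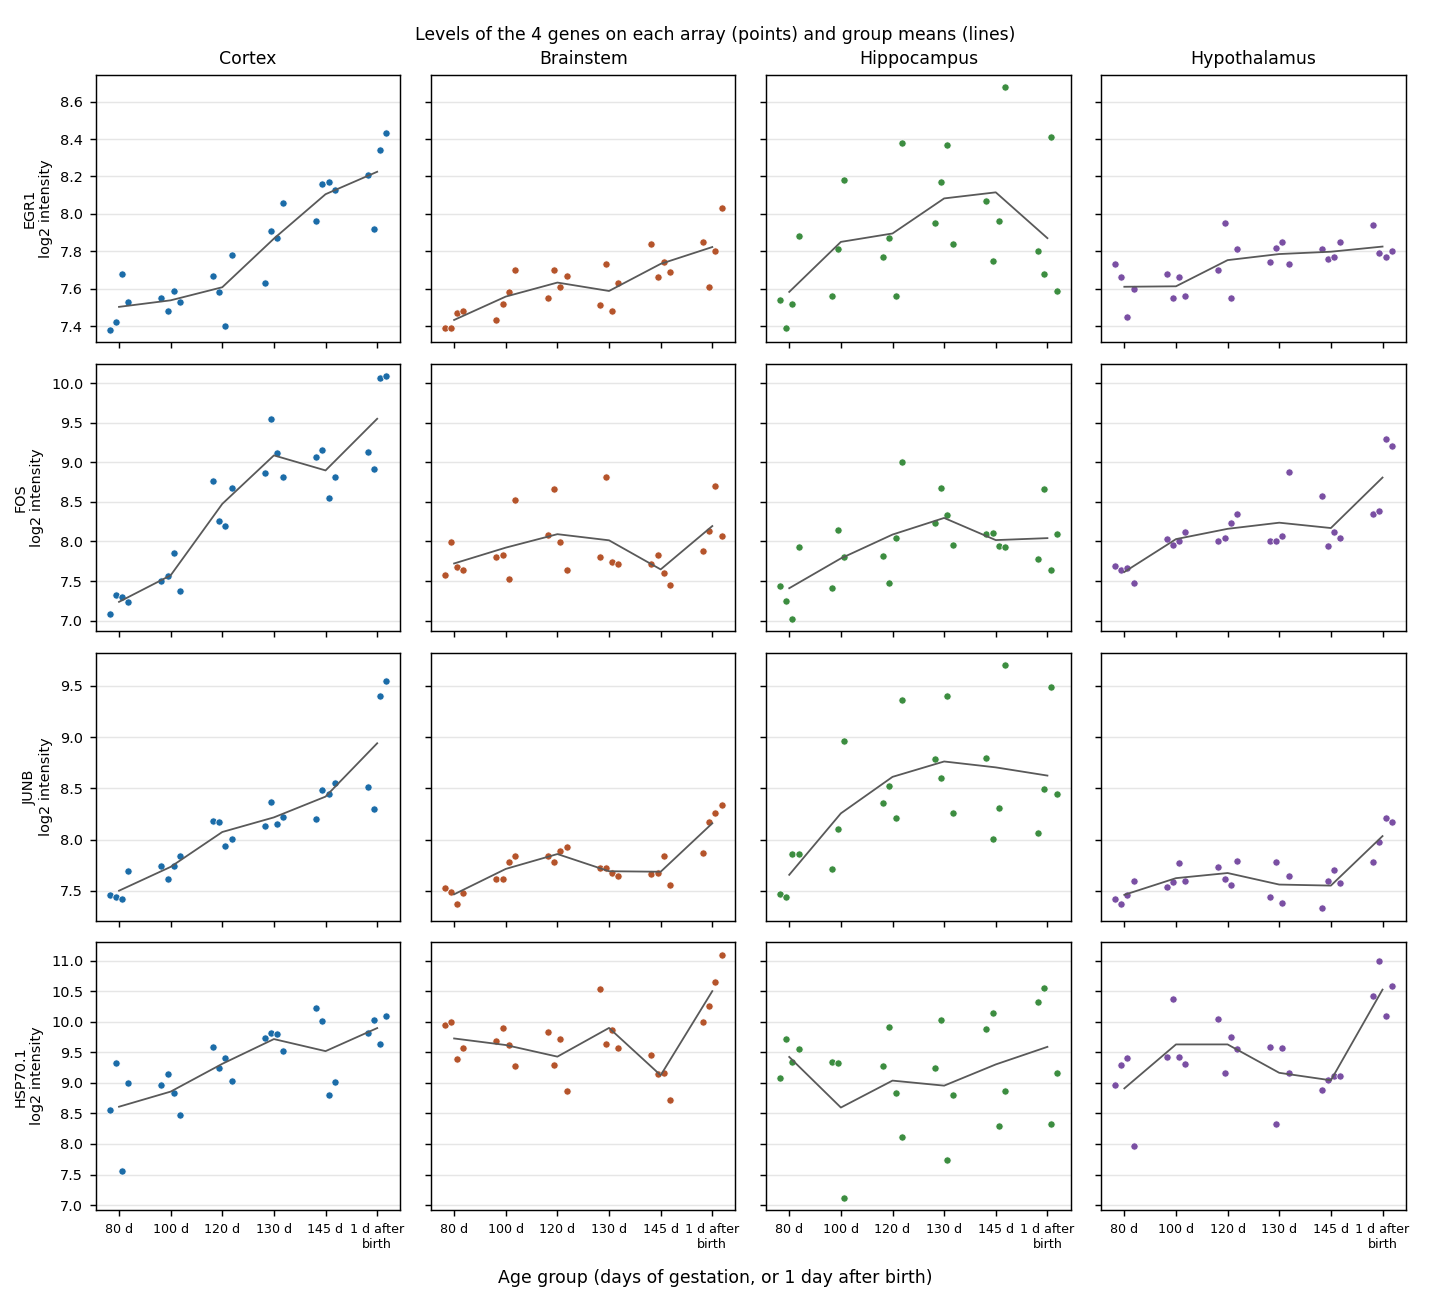
Log2 intensity (vertical axes) of EGR1, FOS, JUNB and HSP70.1 on each of the 95 arrays by age group (horizontal axes), with a column for each region and lines through the group means. In the cortex the FOS mean is 7.24 at 80 d and 9.55 in the newborn, and the hippocampal HSP70.1 points spread from 7.12 to 10.56.

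FOS showed the steepest climb of the 4 genes, and it was in the cortex. At 80 d of gestation the 4 cortices read 7.09, 7.32, 7.3 and 7.24, and at 100 d they read 7.5, 7.56, 7.85 and 7.38. At 120 d they had moved to 8.77, 8.26, 8.19 and 8.68. They read 8.87, 9.55, 9.12 and 8.81 at 130 d and 9.07, 9.15, 8.55 and 8.82 at 145 d. One day after birth they were 9.13, 8.92, 10.06 and 10.09, the last 2 being higher than any fetal cortex.

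The FOS change from 80 d to 145 d in the cortex was 1.66 ± 0.23 on the log2 scale (SE, 3.16-fold, limma adjusted p = 3.79e-06). In that comparison 41.4% of all genes tested were called and 18.7% were called higher. Between 100 d and 120 d FOS rose by 0.90 ± 0.23 (adjusted p = 0.0182), a step in which 6.53% of genes were called. No other step between neighbouring fetal ages passed for any of the 4 genes in any region. Within the 3 cortical slides the 145 d arrays exceeded those of 80 d by 1.86, 1.85 and 1.45.

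Between 145 d and the newborn, cortical FOS differed by 0.65 ± 0.23, which did not pass after adjustment (adjusted p = 0.346), in a comparison where 0.248% of genes were called. The 2 high newborn arrays, replicates 3 and 4, were both on cortical slide 3. Within the slides the difference was 0.06, −0.23 and 1.39, so it was seen on that slide alone. Whether slide or animal carried it was not tested.

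In the hypothalamus FOS read 7.69, 7.64, 7.66 and 7.47 at 80 d, 8.57, 7.94, 8.12 and 8.05 at 145 d, and 8.35, 8.38, 9.3 and 9.2 at 1 d after birth. All newborn arrays were above all 80 d arrays, which 9.64% of genes also showed. FOS rose by 1.19 ± 0.21 over that interval (2.29-fold, limma adjusted p = 0.000376), with 18% of genes called. The difference between 145 d and 1 d after birth was 0.64 ± 0.21 (adjusted p = 0.0949). The 2 high newborn arrays were again replicates 3 and 4 and again on slide 3, with within-slide differences of −0.22, 0.44 and 1.16. With slide as a block in the fit, the adjusted p was 0.0499.

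In the brainstem the mean of the FOS probes gave no call over age (F test, limma adjusted p = 0.362). The 145 d brainstems read 7.71, 7.83, 7.6 and 7.45 and the newborn ones 7.88, 8.13, 8.7 and 8.07. These did not overlap, which 5.49% of genes also showed in this direction, and the difference of 0.54 ± 0.25 did not pass (adjusted p = 0.215). In the hippocampus FOS differed between 80 d and the newborn by 0.63 ± 0.29 (adjusted p = 0.25).

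The FOS probes correlated with each other over the 95 arrays at r = 0.72 to 0.978, but they differed in the size of their changes. From 80 d to 1 d after birth in the cortex, the expressed sequence tag probe A_70_P026731 rose by 3.74 ± 0.28, the shifted pair by 2.29 ± 0.26 and 2.26 ± 0.26, and A_70_P001561 by 0.97 ± 0.15. A_70_P001561 was well above background on only 16 of 24 cortical arrays, 14 of 24 brainstem, 10 of 23 hippocampal and 21 of 24 hypothalamic ones. In the brainstem the expressed sequence tag probe alone rose over this interval, by 1.54 ± 0.48 (limma adjusted p = 0.013), while the other 3 differed by 0.06 to 0.17.

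The brainstem FOS probes also parted on newborn replicate 4. On A_70_P026731 the newborn arrays read 10.59, 10.86, 11.91 and 12.46, against 10.3, 10.45, 10.03 and 10.01 at 145 d. On A_70_P016317 they read 7.12, 7.56, 8.01 and 6.33, against 7.03, 7.09, 6.87 and 6.6. Replicate 4 was thus the highest newborn array on the first probe and the lowest on the second. The spots around A_70_P016317 and A_70_P016316 on that array were lower than in the rest of its group by a median of −1.55 and −1.57, while around A_70_P026731 the median was 0.18. After each spot's local median was removed, brainstem FOS passed from 80 d to 1 d after birth (0.63, adjusted p = 0.0479).

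**Figure D2:**
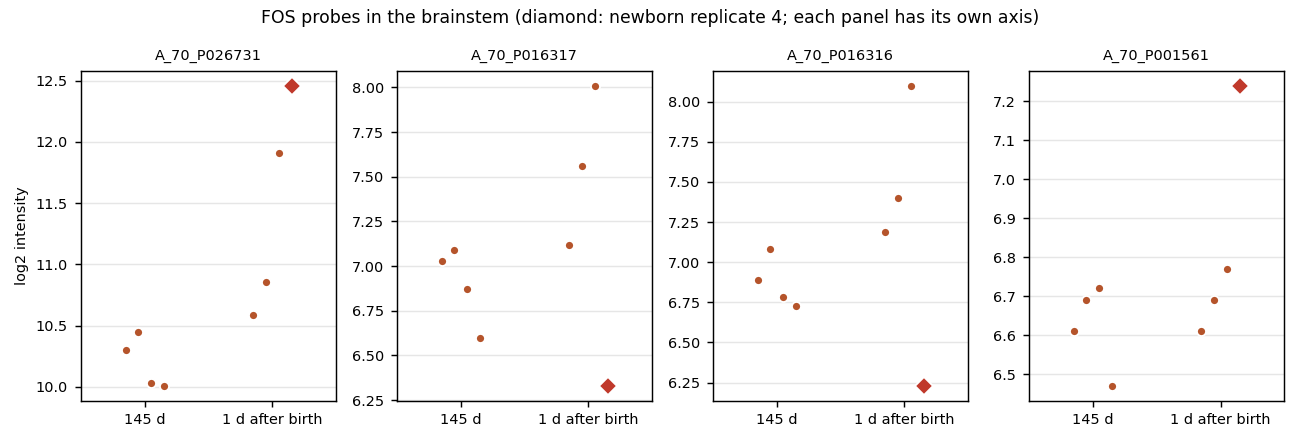
Log2 intensity (vertical axes, one scale per panel) of the FOS probes in the brainstem at 145 d of gestation and 1 d after birth, each point an array and the diamond newborn replicate 4. The diamond is the top newborn point at 12.46 on A_70_P026731 and the bottom one at 6.33 and 6.23 on the shifted pair.

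JUNB also rose through gestation in the cortex. It read 7.46, 7.44, 7.42 and 7.69 at 80 d, and 8.2, 8.48, 8.45 and 8.55 at 145 d. The 100 d arrays lay at 7.62 to 7.84, the 120 d arrays at 7.94 to 8.18 and the 130 d arrays at 8.13 to 8.37, so the group means increased at each age. The change from 80 d to 145 d was 0.92 ± 0.19 (1.89-fold, limma adjusted p = 0.00039), and within slides it was 0.75, 1.06 and 0.82. The newborn cortices read 8.51, 8.3, 9.4 and 9.55, with replicates 3 and 4 high as for FOS, and the difference from 145 d was 0.52 ± 0.19 (adjusted p = 0.388).

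In the brainstem JUNB differed by 0.22 ± 0.09 between 80 d and 145 d (limma adjusted p = 0.0612) and then rose at birth. The 145 d brainstems read 7.67, 7.68, 7.84 and 7.56, and the newborn ones 7.87, 8.17, 8.26 and 8.34, with no overlap, which 5.49% of genes also showed in this direction. JUNB rose by 0.47 ± 0.09 (1.39-fold, limma adjusted p = 0.00615) in a comparison where 4.91% of genes were called and 3.69% were called higher. Each JUNB probe passed on its own, at 0.41 and 0.54. They parted on newborn replicate 4, which was the highest newborn array on A_70_P041672 at 8.81 and the lowest on A_70_P041671 at 7.87. The within-slide values were 0.19, 0.32 and 0.75, and without newborn replicate 4 the change was 0.41 (adjusted p = 0.012).

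The hypothalamic JUNB change at birth was of a like size. The 145 d arrays read 7.33, 7.6, 7.7 and 7.58 and the newborn arrays 7.78, 7.98, 8.21 and 8.17, again apart, which 6.93% of genes also showed in this direction. JUNB rose by 0.49 ± 0.11 (1.4-fold, limma adjusted p = 0.0319), with 2.48% of genes called and 1.42% called higher. Leaving out 1 array at a time gave 0.41 to 0.57, and 5 of these fits no longer passed (adjusted p up to 0.106). The within-slide values were 0.46, 0.38 and 0.55.

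Hippocampal JUNB varied widely among animals of an age. It read 7.47, 7.44, 7.86 and 7.86 at 80 d, 8.8, 8.01, 8.31 and 9.7 at 145 d, and 8.07, 8.49, 9.49 and 8.45 at 1 d after birth. All arrays at 145 d were above all at 80 d, which 6.93% of genes also showed, and the difference of 1.05 ± 0.38 did not pass (limma adjusted p = 0.137). In the hippocampus 4.55% of genes were called between 80 d and 145 d, 5.75% between 80 d and the newborn and 0.00788% at birth. None of the 4 genes passed in any of the 3 comparisons in limma. There EGR1, FOS and JUNB had an unadjusted p under 0.05 in the first, FOS and JUNB in the second and none of the 4 in the last. Of all genes, 16.5%, 18.1% and 2.74% had an unadjusted p under 0.05 in these comparisons.

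In the cortex EGR1 changed less than FOS and JUNB. It read 7.38, 7.42, 7.68 and 7.53 at 80 d, 7.96, 8.16, 8.17 and 8.13 at 145 d, and 8.21, 7.92, 8.34 and 8.43 at 1 d after birth. The 100 d and 120 d arrays, at 7.4 to 7.78, overlapped those of 80 d, and the 130 d arrays reached 7.63 to 8.06. EGR1 rose by 0.61 ± 0.11 from 80 d to 145 d (1.52-fold, limma adjusted p = 8.75e-05), and differed by 0.12 ± 0.11 at birth (adjusted p = 0.929). Within the 3 slides the rise before birth was 0.56, 0.49 and 0.63. The steps from 120 d to 130 d (0.26 ± 0.11, adjusted p = 0.226) and 130 d to 145 d (0.24 ± 0.11, adjusted p = 0.506) did not pass, so the time of the rise is not shown. A_70_P041732, the EGR1 probe well above background on all cortical arrays, did not pass alone from 80 d to 145 d (0.57 ± 0.24, limma adjusted p = 0.0575).

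In the brainstem EGR1 read 7.39, 7.39, 7.47 and 7.48 at 80 d and 7.84, 7.66, 7.74 and 7.69 at 145 d. It rose by 0.30 ± 0.09 (1.23-fold, limma adjusted p = 0.00826), where 37.5% of genes were called and 17% were called higher, and within slides the values were 0.36, 0.27 and 0.21. In the hypothalamus, where 14.1% of genes were called, the change from 80 d to 145 d was 0.19 ± 0.08 (adjusted p = 0.159), and in the hippocampus it was 0.53 ± 0.23 (adjusted p = 0.245). From 145 d to 1 d after birth EGR1 passed in no region, the largest difference being −0.25 ± 0.23 in the hippocampus (adjusted p = 1).

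The brainstem EGR1 call came from 1 of its 3 probes. A_70_P041732 rose by 0.96 ± 0.16 from 80 d to 1 d after birth (limma adjusted p = 5.29e-05), A_70_P023511 differed by 0.26 ± 0.13 (adjusted p = 0.104) and A_70_P041731 by −0.05 ± 0.08 (adjusted p = 0.647). A_70_P041731 was well above background on 2 of 24 brainstem arrays and A_70_P041732 on all 24, so the first gives little more than a bound there. Over the 95 arrays these overlapping probes correlated at r = 0.0657, and the others at 0.39 and 0.509. In the cortex, where A_70_P041731 was well above background on 18 of 24 arrays, the 3 probes rose by 0.60 to 0.80 over the same interval. A_70_P023511 was also dim, being well above background on 17 of 24 cortical, 19 of 24 brainstem, 17 of 23 hippocampal and 14 of 24 hypothalamic arrays.

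**Figure D3:**
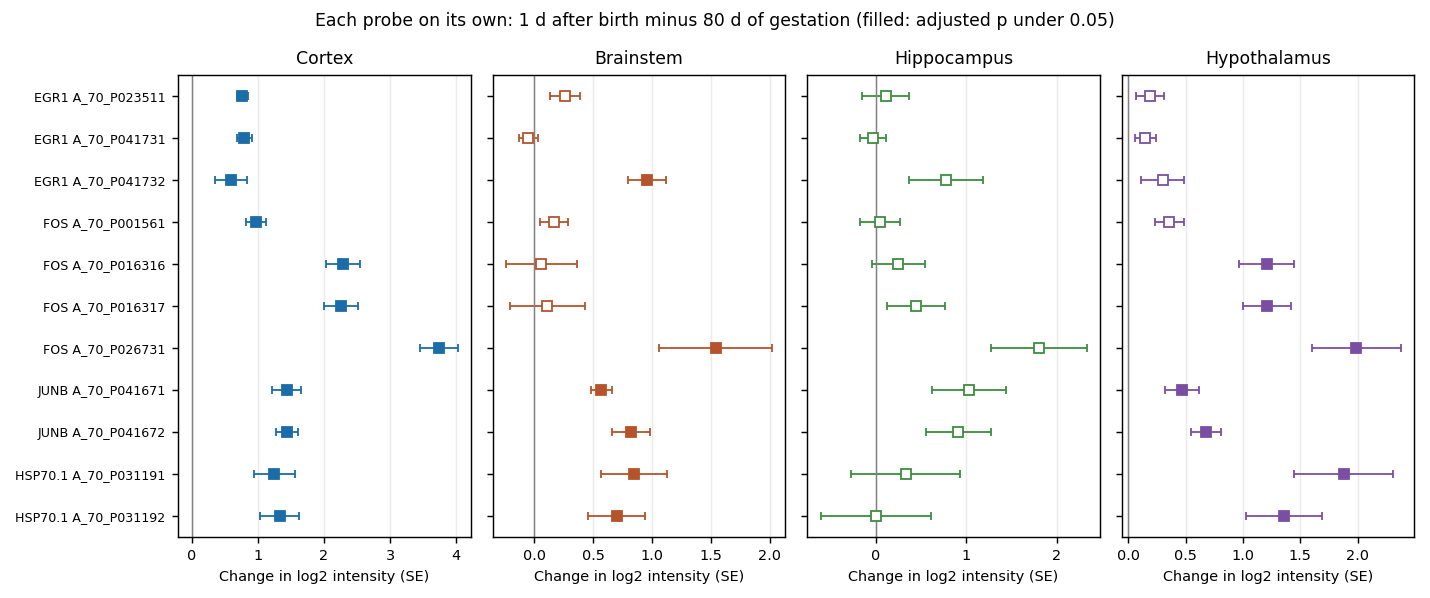
Change in log2 intensity from 80 d of gestation to 1 d after birth (horizontal axes) of each probe by itself, a panel per region, with bars of 1 SE, a scale of its own per panel and filled points where the adjusted p was under 0.05. In the cortex all 11 member probes are filled, from 0.60 to 3.74, whereas in the brainstem the EGR1 and FOS probes fall apart.

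HSP70.1, the chaperone, rose at birth in the brainstem and hypothalamus. In the brainstem the 4 arrays at 145 d read 9.46, 9.15, 9.17 and 8.72, and the newborn arrays read 10, 10.26, 10.65 and 11.1. It rose by 1.38 ± 0.25 (2.6-fold, limma adjusted p = 0.00521), and leaving out any 1 array kept the call (1.18 to 1.55). Within the 3 slides the change was 0.69, 1.09 and 2.15. At 130 d they had read 10.53, 9.64, 9.86 and 9.57, and at 80 d they lay at 9.39 to 10, so the 145 d mean of 9.13 was the lowest of the 6 ages. The difference from 80 d to 145 d was −0.60 ± 0.25 (adjusted p = 0.0685), and the newborn arrays were above the 80 d ones by 0.78 ± 0.25 (adjusted p = 0.0181), with 43% of genes called, a call lost without 80 d replicate 3 (adjusted p = 0.0628) or newborn replicate 4 (0.58, adjusted p = 0.0642).

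In the hypothalamus the 145 d arrays read 8.89, 9.05, 9.12 and 9.11, and the newborn arrays 10.43, 11, 10.09 and 10.59. The age groups did not overlap, which 6.93% of genes also showed in this direction. HSP70.1 rose by 1.48 ± 0.32 (2.8-fold, limma adjusted p = 0.0261). The within-slide values were 1.54, 1.95 and 1.22, and leaving out 1 array gave 1.33 to 1.63, with 3 of these fits not passing (adjusted p up to 0.0784). At 80 d this region read 8.96, 9.3, 9.41 and 7.97.

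Both HSP70.1 probes passed at birth in the brainstem, at 1.41 ± 0.28 and 1.34 ± 0.24. The unnamed probe A_70_P060956, printed above for its overlap, rose there by 1.39 ± 0.25 (limma adjusted p = 0.00554) and in the hypothalamus by 1.46 ± 0.25 (adjusted p = 0.00913). It correlated with the HSP70.1 probes at r = 0.896 and 0.955 over the arrays, the pair of HSP70.1 probes with each other at 0.883. As the sequences overlap, these are not independent measurements.

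In the cortex HSP70.1 read 8.56, 9.33, 7.55 and 9 at 80 d and 10.23, 10.02, 8.81 and 9.02 at 145 d, with overlap. The change of 0.91 ± 0.31 passed (1.88-fold, limma adjusted p = 0.02), but it rested on single arrays. It was 0.56 without 80 d replicate 3, 0.67 without 145 d replicate 1 and 0.74 without 145 d replicate 2, and none of these passed (adjusted p up to 0.11). Within slides it was 1.29, 2.47 and −0.09. At birth cortical HSP70.1 differed by 0.37 ± 0.31 (adjusted p = 0.899), the newborn arrays reading 9.64 or more.

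**Figure D4:**
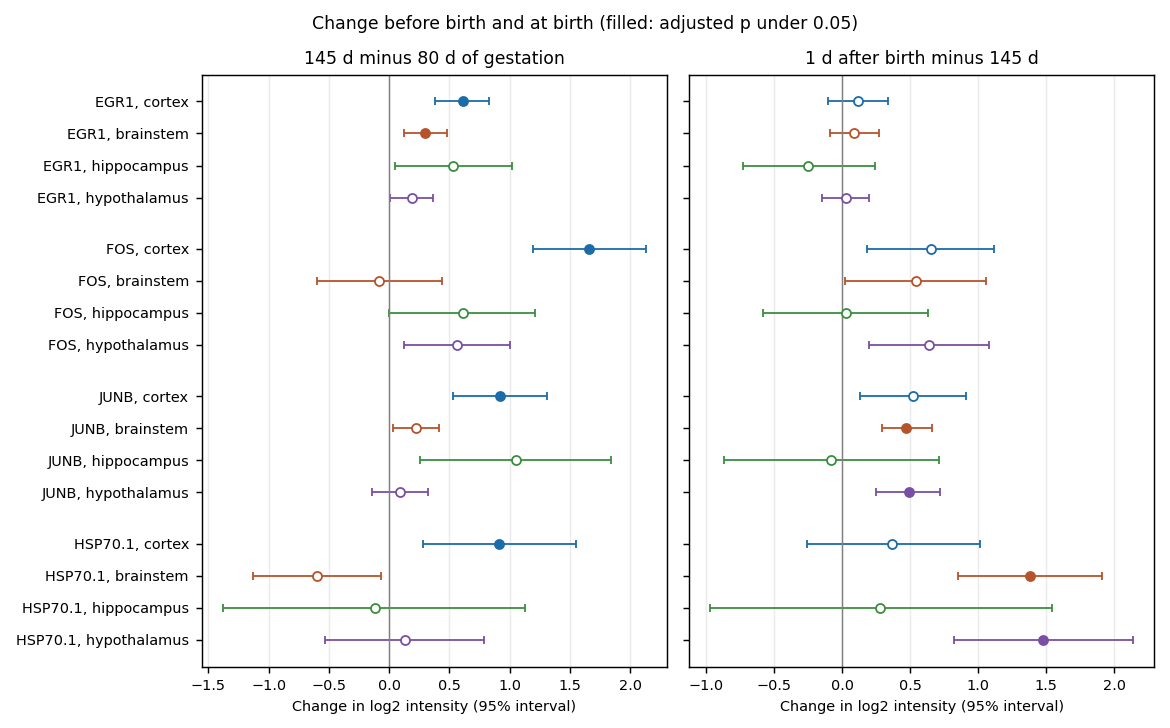
Change in log2 intensity (horizontal axes) from 80 d to 145 d of gestation and from 145 d to 1 d after birth for each gene and region, with 95% intervals and filled points where the adjusted p was under 0.05. The filled points at birth are JUNB and HSP70.1 in the brainstem (0.47 and 1.38) and the hypothalamus (0.49 and 1.48).

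A test of region against region, in a single fit of the 95 arrays, asked if the birth changes were unlike. None of the 4 genes passed, with limma adjusted p of 0.745 for HSP70.1, 0.922 for JUNB, 0.96 for EGR1 and 0.99 for FOS. No unadjusted p was under 0.05 either, the lowest being 0.0678 for HSP70.1, and 0.075% of all genes passed. The HSP70.1 change in the cortex minus that in the hypothalamus was −1.11 ± 0.57 (adjusted p = 0.89). The birth changes of JUNB and HSP70.1 in the brainstem and hypothalamus are therefore not shown to be particular to those regions. In this shared fit, where one estimate of the spread covers all regions, HSP70.1 in the brainstem (adjusted p = 0.0689) and JUNB in the brainstem (0.348) and hypothalamus (0.244) did not pass.

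The hippocampal arrays differed by slide. The 4 HSP70.1 newborn values were 10.32, 10.56, 8.32 and 9.16, and those at 145 d were 9.89, 10.15, 8.3 and 8.87. The 8 arrays of slide 4, the only slide of its scan day, averaged 8.37 for HSP70.1, against 9.68, 9.78 and 9.3 on the other slides. JUNB ran the opposite way, with 8.98 on slide 4 and 8.04, 8.31 and 8.22 on the others. That slide held no array of 80 d, and gene spots marked well above background made up 59.5% to 79.8% (median 71.2%), against medians of 83.2%, 76.2% and 74% on the others. With slide as a block no hippocampal change of the 4 genes passed, JUNB from 80 d to 145 d being 0.95 (limma adjusted p = 0.105).

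**Figure D5:**
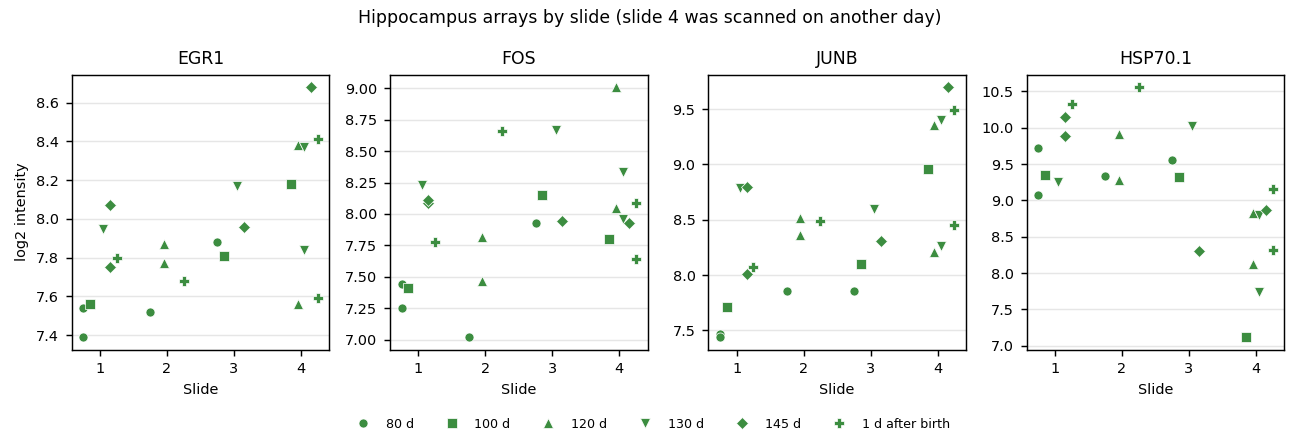
Log2 intensity (vertical axes) of each gene on the 23 hippocampal arrays by slide (horizontal axes), with a marker shape for each age. On slide 4 HSP70.1 averages 8.37, below the other slides, and JUNB averages 8.98, above them.

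How the 4 genes varied together among animals of the same region and age was tested as 24 relations, each a pair of genes in 1 region after the age means were removed, and 1 had an adjusted p under 0.05. EGR1 and JUNB in the hippocampus correlated at r = 0.918 (permutation p = 2e-05, adjusted p = 0.00048) and rho = 0.834 (permutation p = 0.00011, adjusted p = 0.00264) over 23 arrays. Without the 2 arrays farthest from the median it was 0.869 (adjusted p = 0.00744), and within the slides of 7 and 8 arrays it was 0.664 and 0.98. The share of gene spots above background moved with it on slide 4. The 5 arrays of that slide with shares of 59.5% to 72.3% read 8.18 to 8.68 for EGR1 and 8.96 to 9.7 for JUNB, and the other 3, at 74.9% to 79.8%, read 7.56 to 7.84 and 8.21 to 8.45. Its part in the correlation was not tested. JUNB and HSP70.1 in the hippocampus were related at r = −0.632 (adjusted p = 0.0903). In the cortex FOS and JUNB were at 0.707 (adjusted p = 0.244) and EGR1 and JUNB at 0.623 (adjusted p = 0.0903).

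Ranked by mean level over the 24 region and age groups, FOS was highest in the newborn cortex at 9.55 ± 0.61 (SD, n = 4), followed by the cortex at 130 d (9.09 ± 0.34) and 145 d (8.9 ± 0.27). Next was the newborn hypothalamus at 8.81 ± 0.51, and lowest was the cortex at 80 d at 7.24 ± 0.1. The top 4 overlap within their SDs. Newborn FOS was higher in the cortex than in the brainstem by 1.36 ± 0.25 (limma adjusted p = 2.48e-05), the hippocampus by 1.51 ± 0.25 (1.55e-05) and the hypothalamus by 0.74 ± 0.25 (0.0453). FOS levels differed between regions at 130 d, 145 d and 1 d after birth, ages at which 32.7%, 34% and 27.8% of genes did.

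For JUNB the newborn cortex ranked first (8.94 ± 0.63), ahead of the hippocampus at 130 d (8.76 ± 0.48) and 145 d (8.71 ± 0.74), differences smaller than the SDs. The hypothalamus at 80 d ranked last (7.46 ± 0.1), next to the brainstem (7.47 ± 0.07) and cortex (7.5 ± 0.13) of that age. JUNB was higher in the hippocampus than in the hypothalamus by 0.94 at 120 d, 1.20 at 130 d and 1.16 at 145 d (limma adjusted p from 0.000135 to 0.005). At 145 d it was higher in the cortex than in the brainstem by 0.74 (adjusted p = 0.0113). The highest hippocampal JUNB arrays at 120 d (9.36), 130 d (9.4) and 145 d (9.7) were all on hippocampal slide 4. Gene spots well above background made up 59.5%, 72.3% and 64.6% on these arrays. The part of that slide in the hippocampal ranks and differences was not tested.

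EGR1 ranked first in the newborn cortex (8.22 ± 0.22), then in the hippocampus (8.12 ± 0.4) and cortex (8.11 ± 0.1) at 145 d, and last in the brainstem at 80 d (7.43 ± 0.05). In the hippocampus at 145 d, replicate 4 on slide 4 read 8.68 and the other arrays 7.75 to 8.07. Newborn EGR1 was higher in the cortex than in the brainstem by 0.40 ± 0.14 (limma adjusted p = 0.0249) and than in the hypothalamus by 0.40 ± 0.14 (0.0459). The newborn difference between regions, with an F test adjusted p of 0.0386, did not pass with the authors' table (0.0811) or with A_70_P041732 alone (0.915), the EGR1 probe well above background on all arrays. HSP70.1 was highest in the newborn hypothalamus (10.53 ± 0.38) and brainstem (10.5 ± 0.48) and lowest in the hippocampus at 100 d (8.6 ± 1.28, n = 3), whose replicate 3 read 7.12. Its level passed between regions at no age (adjusted p 0.105 to 0.739).

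Other genes of these pathways were few on the array by name. Of 49 immediate early genes listed, 9 were named besides the members: CCN1, JUND, MCL1, MYC, NFKBIA, PER2, PTGS2, RGS2 and ZFP36. The F test over age called 3 of the 9 in the cortex, 5 in the brainstem, 1 in the hippocampus and 2 in the hypothalamus, beside 45.7%, 40.6%, 3.06% and 16% of all genes. From 145 d to 1 d after birth 2 of 9 rose in the brainstem, 1 in the hypothalamus and none in the cortex or hippocampus, and none fell, beside 3.69% and 1.42% of all genes called higher in the brainstem and hypothalamus. Their median birth change was 0.05, 0.29, 0.03 and 0.30 in the cortex, brainstem, hippocampus and hypothalamus, against −0.02, 0.03, −0.02 and 0 over all genes.

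JUND, another AP-1 subunit, averaged 9.63 in the hypothalamus at 80 d, fell to 8.29 by 145 d (limma adjusted p = 0.000315) and was back at 9.73 in the newborn, a rise of 1.44 ± 0.22 (limma adjusted p = 0.00569). In the brainstem it fell by 0.70 before birth (adjusted p = 0.00168) and rose by 0.73 ± 0.16 at birth (adjusted p = 0.0147). CCN1, a secreted matrix protein, rose at birth in the brainstem by 0.35 ± 0.09 (adjusted p = 0.0303). MYC, a growth regulator, fell by 1.69 ± 0.15 in the cortex and fell by 1.74 ± 0.12 in the brainstem between 80 d and 145 d. PTGS2, the inducible prostaglandin synthase that neurons also express, rose over that interval by 2.03 ± 0.18 in the cortex and 2.18 ± 0.40 in the hippocampus. NFKBIA, the inhibitor of NF-kappaB, rose by 1.33 ± 0.24 in the brainstem.

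Of 29 listed genes acting upstream, such as kinases and CREB family members, CREM alone was named, and it rose in the cortex by 0.38 ± 0.11 from 80 d to 145 d (limma adjusted p = 0.00658). Of 54 heat shock genes listed, CRYAA, CRYAB, HSP90AA1 and HSPA5 were named besides HSP70.1, and none of these was called at birth in any region. For CRYAB, the small heat shock protein also known from myelinating cells, the rise from 80 d to 145 d was 3.45 ± 0.24 in the cortex, 4.38 ± 0.21 in the brainstem, 4.72 ± 0.33 in the hippocampus and 4.19 ± 0.28 in the hypothalamus. HSP90AA1, the inducible HSP90, rose in the cortex by 0.71 ± 0.23 and fell by 0.80 ± 0.16 in the brainstem over that interval, and its birth changes were 0.43 ± 0.16 in the brainstem (adjusted p = 0.12) and 0.30 ± 0.13 in the hypothalamus (adjusted p = 0.218). HSPA5, the chaperone of the endoplasmic reticulum, differed at birth by 0.19 ± 0.16 and 0.09 ± 0.19 there (adjusted p = 0.505 and 0.853).

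Of 22 listed genes that respond to oxygen or glucose, 7 were named. At birth 1 of the 7 rose and 1 fell in the cortex, where 0.248% of all genes were called, and likewise in the brainstem, where 4.91% were, with medians of −0.05 and −0.07. VDUP1, a glucose-responsive inhibitor of thioredoxin, rose at birth in the cortex by 1.43 ± 0.25 (limma adjusted p = 0.0147) and in the brainstem by 1.01 ± 0.22 (0.0157). GLUT-1, the glucose transporter of the blood-brain barrier, fell by 0.53 ± 0.11 in the cortex (0.0483), and VEGFA, a hypoxia-inducible growth factor, fell by 1.01 ± 0.22 in the brainstem (0.0124). No gene of the 7 was called at birth in the hypothalamus or hippocampus, their medians there being 0.13 and 0.24.

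Some markers of other cells were called at birth in the brainstem or hypothalamus. Of 5 astrocyte markers 1 rose in the brainstem, and 1 rose and 1 fell in the hypothalamus, with medians of −0.05 and 0.06. GFAP, the astrocyte filament, rose by 1.05 ± 0.27 in the brainstem (limma adjusted p = 0.032) and by 1.64 ± 0.26 in the hypothalamus (0.00663), whereas AQP4, the astrocyte water channel, fell by 3.57 ± 0.86 in the hypothalamus (0.0403) and differed by −0.90 ± 0.32 in the brainstem (0.108). Over the 5 named astrocyte markers of 9, the summed level ranged from 16.86 to 17.24 at 145 d and from 16.42 to 17.21 at 1 d after birth in the brainstem, and from 16.62 to 17.21 and from 16.05 to 16.54 in the hypothalamus. The microglial marker CD14 rose by 0.71 ± 0.17 in the brainstem (0.0203) and 0.72 ± 0.19 in the hypothalamus (0.0482), and ITGAM, another, rose by 0.42 ± 0.11 in the brainstem (0.0388) and differed by −0.26 ± 0.13 in the hypothalamus (0.281). The summed level of the 2 named microglial markers of 12 went from 8.49 to 8.62 at 145 d to 8.79 to 9.79 at 1 d after birth in the brainstem, and from 8.39 to 8.8 to 8.41 to 9.22 in the hypothalamus. Of the vessel markers tested, 1 of 4 rose in the brainstem, 1 of 5 in the cortex and none in the hypothalamus. Their median changes were 0.13, −0.02 and 0.02, against 0.03, −0.02 and 0 over all genes. The marker that rose was ABCB1, an efflux pump of the blood-brain barrier, by 0.83 ± 0.17 in the brainstem (0.00862) and by 0.85 ± 0.14 in the cortex (0.013). The 2 named red cell markers of 8 and the 2 named oligodendrocyte markers of 11 were not called at birth in either region. The part of these cells in the JUNB and HSP70.1 results was not tested.

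Before birth astrocyte markers rose in all 4 regions. All 5 rose from 80 d to 145 d in the cortex, with a median change of 1.77, and their summed level went from 14.79 to 15.35 at 80 d to 16.37 to 16.99 at 145 d. Both named oligodendrocyte markers of 11 rose there too, with a median of 3.58. In the brainstem all 5 astrocyte markers rose, with a median of 1.20 and summed levels of 15.78 to 16.29 at 80 d and 16.86 to 17.24 at 145 d. In the hypothalamus 3 of the 5 rose, with a median of 1.35, and in the hippocampus 3 of the 5, with a median of 1.92. Hypothalamic FOS differed over this interval by 0.56 ± 0.21 (limma adjusted p = 0.0859). The part of these cells in the FOS, JUNB and EGR1 changes was not tested.

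Among 842 named genes over 95 arrays, the pattern most like that of EGR1, after region means were removed, was that of JUNB (r = 0.834), followed by CAMK2 (0.81), AQP2 (0.757) and PDXK (0.74). For JUNB the nearest after EGR1 were CAMK2 (0.813), PDXK (0.761) and LCAT (0.721). FOS was nearest to PTGDS (0.729), ADCYAP1 (0.683) and, behind JUNB (0.668), GFAP (0.66). HSP70.1 was nearest to CAPNS1 (0.701), CD81 (0.683) and ZO2 (0.661), and its correlation with the 3 immediate early genes was −0.022 for EGR1, 0.0828 for JUNB and 0.386 for FOS. These are descriptions over arrays that share ages, slides and scan days.

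With the group means removed as well, so that only animals of the same region and age are compared, EGR1 was closest to AQP2 (0.828), CAMK2 (0.806) and HAND1 (0.778). JUNB was closest to VEGFA (0.789), CAMK2 (0.76) and EGR1 (0.76). FOS was closest to the cathelicidins BAC5 (0.514), CATHL1B (0.481) and CATHL3 (0.466), antimicrobial peptide genes. HSP70.1 was closest to RPL4 (0.727), a ribosomal protein gene, and its correlation was −0.444 with EGR1 and −0.431 with JUNB. The 5 arrays of hippocampal slide 4 that had low shares of spots above background and were high in EGR1 and JUNB read 7.12, 8.12, 7.74, 8.87 and 8.32 for HSP70.1, against 8.8 to 9.16 on its other 3, and whether signal quality carried these likenesses was not tested.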

How the data were processed

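Total RNA of each tissue was labelled with Cy3 and hybridised to Agilent sheep arrays of 15208 gene spots, 1 array per sample. The deposited scanner files, made with Feature Extraction 10.1.1.1 per the file headers, hold raw spot intensities, and the authors' series table holds normalized log2 values of 11138 probes, used as an alternative. In that table, all 95 columns matched their own array best (lowest r 0.999, slopes 0.957 to 0.989). Its medians were 9.04 to 9.1.

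Mean intensities were background-corrected (normexp, offset 50) and quantile-normalized over all arrays in limma 3.58.1 under R 4.3.3, following the study's limma methods. Spots marked as outliers were left out, including 1 HSP70.1 spot in the hypothalamus, whose array used the other probe. Probes of a gene were averaged. Probes below 1.1 times the 95th percentile over 77 negative controls were dropped unless 4 arrays of a region passed, leaving 12685 to 12927 genes per region. Each region was fitted by age with empirical Bayes variances, the F test standing in for the time-course method of the study, which was not used here. P-values were Benjamini-Hochberg adjusted over all genes, with a threshold of 0.05. Differences between regions came from one fit over the 95 arrays. Correlations used 100000 permutations within ages.

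Samples were grouped by region and age from the labels. The replicate numbers were not used as pairs in the main fits, as the labels do not say what they mark. Between regions, 46 of 95 arrays were closest to their own number. The labels do not state which arrays of different regions share an animal, although the methods take all regions from each brain. Symbols came from the files or by accession from RefSeq tables, giving 1563 probes a name and 13445 none. Scripts were tested on simulated data. The number of arrays limits the precision. The genes and lists were chosen with earlier results of these data known. Genes named are the members, immediate early, upstream and heat shock genes called over age or at birth, genes of the other lists called at birth, and the 3 named genes most like each member. Not every called gene is named. Alternatives covered background offset, scaling, filter, probe choice, local trends, blocks for replicate number and slide, and each array left out.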

Additional observations from a re-analysis of the deposited data

Results flagged for a closer look

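In 92 groups of 4 arrays, 6 had 1 array that stood apart from the other 3 by Dixon's test, where chance gives about 1 in 20. For EGR1 these were cortex 145 d replicate 1, at 7.96 below the nearest at 8.13, and hypothalamus newborn replicate 1, at 7.94 above 7.8. For JUNB it was cortex 80 d replicate 4, at 7.69 above 7.46. For FOS, brainstem 130 d replicate 2 read 8.81 with the nearest at 7.8, and hypothalamus 130 d replicate 4 read 8.88 with the nearest at 8.07. HSP70.1 in hypothalamus 100 d replicate 2 was 10.37, the nearest being 9.42.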

How the results depend on the processing

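For 116 results, 1680 values were recomputed: 1580 kept their direction and side of the threshold, 37 lost a call, 23 gained one and 40 changed sign. None of the member genes passed for a birth change differing between regions under any setting run. The birth changes of HSP70.1 and JUNB in the brainstem kept their calls under every setting except the fit over all arrays. There HSP70.1 in the brainstem was 1.38 (adjusted p = 0.0689), JUNB in the brainstem 0.47 (0.348) and JUNB in the hypothalamus 0.49 (0.244), and with age and number as a random block the adjusted p were 0.0657, 0.34 and 0.24 for the same changes of 1.38, 0.47 and 0.49. The correlation among arrays of the same age and number was 0.0331.

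With the replicate number as a block, no call changed: HSP70.1 at birth was 1.38 in the brainstem (adjusted p = 0.00848) and 1.48 in the hypothalamus (0.0331), and JUNB 0.47 (0.0104) and 0.49 (0.0287). Of 95 arrays, 43 were closest to their own number between ages and 46 between regions, where 4 unrelated numbers would give about 1 in 4. Median correlations of same-numbered arrays were −0.00884 to 0.182, against −0.1 to 0.04 for other numbers, with the widest gap in the cortex between ages (0.182 against −0.1). This is a hint of a link by number, but same-numbered pairs went as low as −0.573, and the labels do not state what a number marks. In the cortex and brainstem every replicate 1 was on slide 1 and every replicate 4 on slide 3. Same-numbered arrays of different ages thus often shared a slide, and the replicate block partly repeats the slide block. Whether number or slide carried the likeness between ages was not tested.

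With the slide block, EGR1 in the hypothalamus from 80 d to 1 d after birth (0.24, 0.0362) and FOS there at birth (0.64, 0.0499) passed, and HSP70.1 in the hippocampus from 80 d to 145 d turned to 0.22.

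With the authors' table, EGR1 in the hypothalamus at birth was −0.01, and EGR1 between regions did not pass at 145 d (0.0815) or 1 d after birth (0.0811). With a normexp offset of 16, brainstem EGR1 did not pass from 80 d to 145 d (0.29) or over age (0.0539), and hippocampal FOS at birth was −0.01.

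With the scanner's processed signal, scaled on each array's 75th percentile, brainstem EGR1 from 80 d to 145 d (0.48) and over age (0.0883) did not pass. HSP70.1 there passed from 80 d to 145 d (−0.79), as did FOS (0.0384) and HSP70.1 (0.0376) between regions at 80 d and cortical EGR1 with FOS (0.709). Hippocampal HSP70.1 from 80 d to 1 d after birth was −0.07. Signs turned for EGR1 with FOS (0.117), EGR1 with JUNB (0.166) and FOS with HSP70.1 (0.0348) in the hypothalamus, FOS with HSP70.1 in the hippocampus (−0.261) and JUNB with HSP70.1 in the cortex (0.0482).

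With local trends removed, calls were gained from 80 d to 145 d for brainstem HSP70.1 (−0.60) and JUNB (0.22), and from 80 d to 1 d after birth for hypothalamic EGR1 (0.20) and brainstem FOS (0.63). Correlations gained were EGR1 with HSP70.1 (−0.658) and JUNB with HSP70.1 (−0.665) in the hippocampus and EGR1 with JUNB in the cortex (0.637). Those that turned were EGR1 with FOS (0.0155) and EGR1 with JUNB (0.0811) in the hypothalamus and FOS with HSP70.1 in the hippocampus (−0.0676).

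By the brightest probe, EGR1 in the cortex from 80 d to 145 d (0.57) and between regions at 145 d (0.331) and 1 d after birth (0.915) did not pass, but did at 120 d (0.0296). FOS between regions at 130 d (0.0784), and hypothalamic JUNB at birth (0.42) and over age (0.108), did not pass. Calls gained were FOS in the brainstem from 80 d to 1 d after birth (1.54), FOS in the hypothalamus (1.38) and HSP70.1 in the brainstem (−0.64) from 80 d to 145 d. Signs turned for EGR1 in the hypothalamus at birth (−0.24), FOS in the brainstem (0.28) and HSP70.1 in the hypothalamus (−0.27) from 80 d to 145 d, and HSP70.1 in the hippocampus from 80 d to 1 d after birth (0).

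By single probes, the brightest probes A_70_P026731, A_70_P031192, A_70_P041671 and A_70_P041732 repeated those within-region changes of 1.54, 0.28, 1.38, −0.64, 0, −0.27, 0.42, 0.57 and −0.24. A_70_P001561 lost FOS in the hypothalamus from 80 d to 1 d after birth (0.36), and A_70_P016316 gained it at birth (0.96). For hippocampal FOS at birth, A_70_P016316 gave −0.30 and A_70_P016317 −0.03. A_70_P031191 gave HSP70.1 at 1.34 at birth in the hypothalamus, not passing, and 0.13 in the hippocampus from 80 d to 145 d. For brainstem EGR1, A_70_P023511 gave 0.26 to 1 d after birth and 0.07 to 145 d, not passing, and A_70_P041731 gave −0.05 and −0.13. A_70_P023511 gave −0.04 for hypothalamic EGR1 to 145 d, and A_70_P041731 −0.03 for hippocampal EGR1 to 1 d after birth.

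Leaving out 1 array at a time changed a call or sign as follows. From 145 d to 1 d after birth the ranges were 1.33 to 1.63 for HSP70.1 and 0.41 to 0.57 for JUNB in the hypothalamus, −0.01 to 0.05 for EGR1 in the hypothalamus, and −0.18 to 0.16 for FOS, −0.05 to 0.71 for HSP70.1 and −0.37 to 0.25 for JUNB in the hippocampus. From 80 d to 145 d they were 0.56 to 1.15 for HSP70.1 in the cortex, −0.71 to −0.47 for HSP70.1, 0.17 to 0.26 for JUNB and −0.14 to 0.01 for FOS in the brainstem, and −0.40 to 0.21 in the hippocampus and −0.18 to 0.30 in the hypothalamus for HSP70.1. From 80 d to 1 d after birth HSP70.1 ranged from 0.58 to 0.94 in the brainstem and −0.16 to 0.59 in the hippocampus.

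The number of genes called at birth moved from 32 to 18 in the cortex with the processed signal, from 627 to 1013 in the brainstem without local trends, and from 320 to 598, 774 and 681 in the hypothalamus with the processed signal, without local trends and with the slide block. The single gene called in the hippocampus was not called with the processed signal, which also moved the share called higher from 57.2% to 41.8% in the hypothalamus at birth, and in the hippocampus from 46.6% to 57.2% from 80 d to 145 d and from 41.2% to 53.2% from 80 d to 1 d after birth. Levels between regions were not recomputed with normalization within each region, which makes them incomparable. The cause of these changes was not tested. Signal near background limits A_70_P041731, A_70_P023511 and A_70_P001561, and 4 animals per group limit the rest.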
